A study of Arabidopsis thaliana with 12 samples.

Results

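A group of 10 genes was followed among the 27371 genes of the deposited tables. They encode structural proteins of the nuclear pore and 1 nuclear import receptor. They were taken by name, for a known place in plant immunity or in the same pore module, and no measured value entered the rule. The genes are MOS3 (also called NUP96, AT1G80680), MOS7 (NUP88, AT5G05680), NUP160 (AT1G33410), NUP136 (AT3G10650), NUP82 (AT5G20200), MOS6 (importin alpha 3, AT4G02150), NUP85 (AT4G32910), SEH1 (AT1G64350), NUP43 (AT4G30840) and NUP107 (AT3G14120). The study asked which genes depend on the lamin-like protein LINC1 in Arabidopsis thaliana challenged with bacteria. mRNA was sequenced from whole seedlings, 14 days old, grown at 23 °C on sugar-free medium. The 4 groups had 3 libraries each: WT (wild type, Col-0) mock, WT with Pst hrcC-, linc1-1 mock and linc1-1 with Pst hrcC-. Per the labels, treated seedlings were sprayed with bacteria at an OD600 of 0.002 and stood for 24 hours. The study's methods give a denser suspension of Pst hrcC- for their bacterial counts, so the inoculum of these seedlings is known from the labels alone. Pst hrcC- is Pseudomonas syringae pv. tomato without a working type III secretion system, so the plant meets its surface patterns without injected effectors. The mutant is a single T-DNA insertion allele of LINC1 in Col-0, so an effect of the line cannot be told apart from an effect of anything else that line carries.

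The nuclear pore is a ring of nucleoporins through the nuclear envelope. Its outer ring, or Y complex, forms the scaffold, nucleoporins on the cytoplasmic side and in the basket on the nuclear side handle cargo, and importin alpha carries proteins with a nuclear localization signal through the channel together with importin beta. The small GTPase Ran sets the direction of this traffic. In Arabidopsis, mutations in MOS3, MOS6 and MOS7 suppress the autoimmunity of the snc1 mutant, and plants without NUP160, SEH1 or both basket proteins NUP136 and NUP82 have weakened basal defense.

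Levels are given in FPKM, read fragments scaled by transcript length and by the fragments mapped in a library. LINC1 itself ranged from 17.2 to 28.3 FPKM in WT and from 2.09 to 3.76 FPKM in linc1-1, so the genotype labels held in every library. The WT replicate 1 libraries stood apart: the first principal component placed them at -49 and -27.8, on the side of the linc1-1 libraries (-39.5 to -4.98), whereas the other 4 WT libraries lay between 41.8 and 59. All 8 markers of dividing cells were detected in every library, and their summed level was 115 and 57.6 FPKM in WT replicate 1 (mock and Pst hrcC-) against 22.7 to 38.5 FPKM in the other WT libraries and 80 to 111 FPKM in linc1-1. The summed level of the 7 green tissue markers was 42600 and 38300 FPKM in WT replicate 1 (mock and Pst hrcC-). It was 21100 to 32400 FPKM in the other WT libraries and 19200 to 46000 FPKM in linc1-1, where LHCB1.3 was listed at 0 in 2 libraries. Over all 7 markers the mean of log2(FPKM + 1) was 11.88 and 11.78 in WT replicate 1 (mock and Pst hrcC-). This mean was 9.83 to 10.36 in the other WT libraries and 9.05 to 11.33 in linc1-1. Some single markers stood further apart than the sum, of which 2 follow. The levels of the remaining green tissue markers are not given singly here. RCA, the activase of Rubisco, was at 1060 and 1140 FPKM in WT replicate 1 against 181 to 281 FPKM in the other WT libraries and 345 to 717 FPKM in linc1-1. The antenna gene LHCB2.1 was at 1440 and 1750 FPKM there against 57 to 88.6 FPKM and 99.2 to 170 FPKM. The sum of 8 clock genes was 54.3 FPKM in WT Pst hrcC- replicate 1 against 200 to 260 FPKM in the other 11 libraries. The part of dividing cells, green tissue or clock phase in the results below was not tested. Markers of green tissue and of roots were both present, as whole seedlings should hold. The 2 lines were deposited in 2 separate tables, and whether these were normalized together is not stated, so every difference between linc1-1 and WT carries that limit.

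All 10 genes were detected in all 12 libraries, at low to moderate levels. NUP136, a plant-specific basket protein, had the highest mean over the 12 libraries at 8.94 FPKM, followed by MOS3 at 6.51, MOS6 at 4.90, NUP82 at 4.56, SEH1 at 4.39, NUP85 at 4.03, MOS7 at 2.92, NUP43 at 2.64, NUP160 at 1.28 and NUP107 at 0.781 FPKM. The order was firm at its ends: NUP136 was above MOS3 in 11 of 12 libraries, and NUP43 above NUP160 and NUP160 above NUP107 in 12 of 12. It was not firm in the middle, where MOS6 was above NUP82, NUP82 above SEH1 and SEH1 above NUP85 in only 7 of 12 libraries each. Members of the outer ring, which sit in the same complex, spanned 0.781 to 6.51 FPKM. NUP107 did not reach the mean of 1 FPKM required for testing, so tests cover 9 of the 10 genes.

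**Figure D1:**
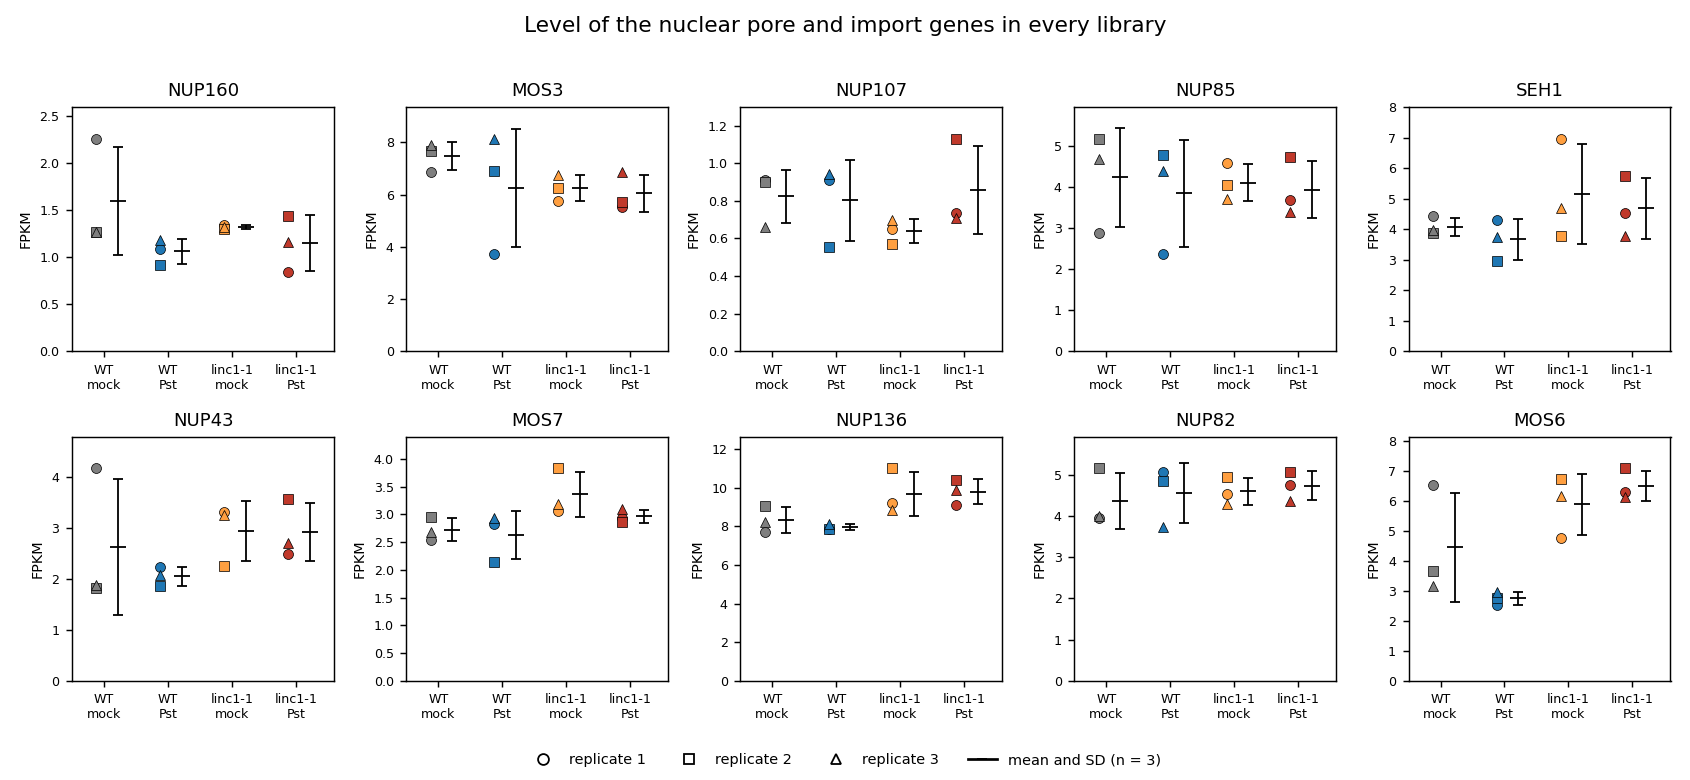
Level of each of the 10 genes in FPKM (vertical axes, each starting at 0) in the 4 groups. Colored symbols are single libraries by replicate and black bars are the group mean and SD (n = 3). MOS6 is the gene whose 3 WT Pst hrcC- libraries (2.54 to 2.97 FPKM) lie farthest below its 3 linc1-1 Pst hrcC- libraries (6.13 to 7.09 FPKM).

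MOS3, MOS7 and NUP160 shared a sequence feature in the 250 bases before their annotated starts (TAIR10.1). Each held a pair of site II elements, the motif TGGGCC or TGGGCT known from promoters of ribosomal protein and cell cycle genes, with the second copy on the opposite strand and 7 bases between the copies. The stretches are shown because the arrangement was the same in the 3 genes, with the site II letters in capitals as read on the strand of the gene.
MOS3: atattTGGGCCttattatGGCCCAatgt
MOS7: gttaaTGGGCCgaataaaAGCCCAttaaa
NUP160: ctaaaTGGGCCgtatctaGGCCCAataaa
The first copy began 23 bases before the start of MOS3 (chr1:30323854-30323881, plus strand), 59 bases before that of MOS7 (chr5:1698206-1698234, plus strand) and 67 bases before that of NUP160 (chr1:12118905-12118933, minus strand). The MOS3 stretch also lies within the annotated first bases of RAE1, which starts in the opposite direction. Both strands were searched, and among 16517 promoters of tested genes 22.8% held a site II element anywhere, 0.811% held 2 copies at this spacing and 0.387% (64 promoters) held them facing each other as here. None of the 72 other listed pore, transport and export genes had the facing pair in its window. RAE1 is among the 72, and the MOS3 stretch lies past its start, outside its window. At a share of 0.387% over all promoters, 0 of 72 does not set these genes apart from the rest. The spacing was noticed after the stretches had been read, so the counts describe these promoters and no test was made. Of the other motifs searched, the W box (TTGACC or TTGACT, bound by WRKY factors) was found 69 bases before the start of NUP136 and 65 bases before that of SEH1 against 28% of all promoters, and neither the G box (CACGTG, 7.27% of all) nor the telo box (AAACCCTA, 3.47% of all) occurred in any of the 10. The window of MOS6 held none of the 4 motifs. Other annotated genes reach into some of these windows, among them CPK2 for NUP136, AT5G05670 for MOS7 and AT1G33415 for NUP160.

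No outer ring gene passed the test used throughout, which was limma on log2(FPKM + 1), the log2 scale of all fold changes here. P-values were adjusted by Benjamini-Hochberg over 16677 genes, and a gene was called where its adjusted p was below 0.05 and its fold was over 1.5. The p-values measure the spread between 3 biological replicates a group, and the fit took all 12 libraries as independent. The WT replicate 1 libraries of the 2 treatments deviated together (r = 0.448). The error of the difference between the lines over both treatments may therefore be understated. In whole-seedling RNA, fewer cells of a type and less RNA per cell cannot be told apart.

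NUP160, a core scaffold protein of the ring, was at 2.26, 1.27 and 1.27 FPKM in WT mock (replicates 1, 2 and 3). It was at 1.09, 0.916 and 1.18 FPKM in WT with Pst hrcC-. In linc1-1 it was at 1.34, 1.3 and 1.32 FPKM in mock and at 0.844, 1.44 and 1.16 FPKM with Pst hrcC-. WT mock replicate 1 was the highest of the 12 libraries, and every treated WT library was below every mock one. In WT the response was -0.31 on the log2 scale (SE 0.18, adjusted p = 0.993 in limma), and -0.14 without WT mock replicate 1. Lower groups without overlap occurred in 5.14% of all tested genes in that comparison.

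MOS3, the ring protein whose loss suppresses snc1, was at 6.86, 7.65 and 7.91 FPKM in WT mock. It was at 3.73, 6.89 and 8.13 FPKM in WT with Pst hrcC-. The linc1-1 libraries were at 5.77, 6.26 and 6.76 FPKM in mock and at 5.52, 5.73 and 6.87 FPKM with Pst hrcC-. WT Pst hrcC- replicate 1 was far below every other library, and all 3 linc1-1 mock libraries were below the 3 WT mock libraries. The difference in mock was -0.22 on the log2 scale (SE 0.22, adjusted p = 0.857 in limma), where 8.84% of all tested genes had linc1-1 below WT without overlap. With Pst hrcC- the difference was 0.01 (SE 0.22) with all libraries and -0.28 without WT replicate 1, a change of sign that rests on this library.

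NUP85, a further scaffold protein, was at 2.87, 5.17 and 4.67 FPKM in WT mock and at 2.36, 4.78 and 4.40 FPKM in WT with Pst hrcC-. In linc1-1 it was at 4.58, 4.04 and 3.70 FPKM and at 3.67, 4.72 and 3.40 FPKM. Both WT replicate 1 libraries were the lowest of the 12, and the groups overlapped in every comparison. Over both treatments linc1-1 differed from WT by 0.02 on the log2 scale (SE 0.17, 95% interval -0.35 to 0.39), and -0.20 without the WT replicate 1 libraries.

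SEH1, a beta-propeller protein of the ring, was at 4.42, 3.86 and 3.96 FPKM in WT mock and at 4.31, 2.95 and 3.73 FPKM in WT with Pst hrcC-. In linc1-1 it was at 6.96, 3.77 and 4.71 FPKM in mock and at 4.54, 5.74 and 3.77 FPKM after treatment. The 4 highest levels were in linc1-1 libraries, and the groups overlapped in every comparison. For SEH1 linc1-1 minus WT was 0.26 on the log2 scale (SE 0.15, adjusted p = 0.326 in limma), and 0.16 without linc1-1 mock replicate 1.

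NUP43, a WD40-repeat protein of the same ring, was at 4.17, 1.82 and 1.88 FPKM in WT mock. It was at 2.23, 1.86 and 2.08 FPKM in WT with Pst hrcC-, and at 3.31, 2.26 and 3.26 FPKM (mock) and 2.49, 3.57 and 2.71 FPKM (Pst hrcC-) in linc1-1. WT mock replicate 1 was again the highest library, and all other WT libraries were below all 6 of linc1-1. The difference between the lines over both treatments was 0.26 on the log2 scale (SE 0.16, adjusted p = 0.383 in limma). Without the WT replicate 1 libraries it was 0.42 (SE 0.12, adjusted p = 0.0268 in limma), a fold still under 1.5. Those libraries lay on the linc1-1 side of the first principal component. The share of all genes passing without them is not given here, so the value is not read as particular to NUP43.

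NUP107, which joins the stem of the ring, was at 0.909, 0.899 and 0.663 FPKM in WT mock and at 0.909, 0.555 and 0.944 FPKM in WT with Pst hrcC-. It was at 0.649, 0.569 and 0.698 FPKM in linc1-1 mock and at 0.735, 1.13 and 0.711 FPKM in linc1-1 with Pst hrcC-. The 3 treated linc1-1 libraries were above the 3 mock ones by a narrow gap, and the groups overlapped in the other comparisons. Higher treated linc1-1 groups without overlap occurred in 7.45% of all tested genes. With no filter on low values, which took in 24967 genes, its linc1-1 response was 0.17 on the log2 scale (SE 0.12, adjusted p = 1 in limma) and its difference between the lines was -0.05 (SE 0.08, adjusted p = 0.767).

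On the cytoplasmic side, MOS7, which restrains the export of defense regulators from the nucleus, was at 2.54, 2.95 and 2.69 FPKM in WT mock and at 2.83, 2.14 and 2.93 FPKM in WT with Pst hrcC-. It was at 3.07, 3.83 and 3.19 FPKM in linc1-1 mock and at 2.93, 2.86 and 3.10 FPKM in linc1-1 with Pst hrcC-. Every linc1-1 mock library was above every WT mock library, while the treated groups overlapped. The difference in mock was 0.23 on the log2 scale (SE 0.14, adjusted p = 0.733 in limma), or 0.15 without linc1-1 mock replicate 2, and 7.08% of all tested genes were higher in linc1-1 mock without overlap.

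In the basket, NUP136, which also shapes the nucleus and takes part in mRNA export, was at 7.70, 9.03 and 8.24 FPKM in WT mock and at 7.87, 7.84 and 8.13 FPKM in WT with Pst hrcC-. In linc1-1 it was at 9.22, 11 and 8.87 FPKM in mock and at 9.11, 10.4 and 9.86 FPKM with Pst hrcC-. Only WT mock replicate 2, at 9.03 FPKM, reached into the linc1-1 range. The difference between the lines over both treatments was 0.23 on the log2 scale (SE 0.10, 95% interval 0.02 to 0.44, adjusted p = 0.207 in limma) and did not pass. With Pst hrcC- alone it was 0.27 (SE 0.14) and fell to 0.12 under size-factor scaling. The gene overlaps CPK2 by 219 bases on the same strand, and CPK2 was at 0.645 to 2.33 FPKM with a difference of 0.15 (SE 0.18) between the lines.

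NUP82, the relative of NUP136 that acts with it in defense, had group means within 4.37 to 4.73 FPKM. It was at 3.94, 5.15 and 4 FPKM in WT mock, at 5.07, 4.85 and 3.72 FPKM in WT with Pst hrcC-, at 4.54, 4.95 and 4.29 FPKM in linc1-1 mock and at 4.76, 5.07 and 4.36 FPKM in linc1-1 with Pst hrcC-. Between the lines NUP82 differed by 0.06 on the log2 scale (SE 0.11, 95% interval -0.17 to 0.29), so a change of 1.5-fold lies outside the interval.

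MOS6, the import receptor, was the gene of the group called higher in linc1-1 over both treatments. It was at 6.54, 3.65 and 3.17 FPKM in WT mock, with a mean of 4.45 ± 1.82 FPKM (SD, n = 3). It was at 2.54, 2.76 and 2.97 FPKM in WT with Pst hrcC- (2.76 ± 0.213 FPKM). In linc1-1 it was at 4.77, 6.75 and 6.18 FPKM in mock (5.90 ± 1.02 FPKM) and at 6.29, 7.09 and 6.13 FPKM with Pst hrcC- (6.50 ± 0.512 FPKM). Apart from WT mock replicate 1, every WT library was below every linc1-1 library. The difference between the lines over both treatments was 0.69 on the log2 scale (SE 0.15, 95% interval 0.36 to 1.02, 1.61-fold on the log2(FPKM + 1) scale), with an adjusted p of 0.0404 in limma. It was the 1 call among the 9 tested genes in this comparison, where 0.845% of all tested genes were called higher, 1.25% lower and 2.09% in either direction.

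Within the treatments the MOS6 difference was 0.38 (SE 0.21, adjusted p = 0.715 in limma) in mock, where the groups overlapped through WT replicate 1. With Pst hrcC- it was 1.00 (SE 0.21, 95% interval 0.53 to 1.46, adjusted p = 0.0728), with no overlap. The response of MOS6 in WT was -0.49 (SE 0.21, adjusted p = 0.945), and -0.23 without WT mock replicate 1. The linc1-1 response was 0.13 (SE 0.21). The difference between the 2 responses was 0.62 (SE 0.30, 95% interval -0.04 to 1.28, adjusted p = 1), so the larger gap after treatment was not shown to differ from that in mock. Without WT mock replicate 1 the difference between the responses was 0.36. Without the WT replicate 1 libraries the difference between the lines was called in each treatment, at 0.64 (adjusted p = 0.0322 in limma) in mock and 0.96 (adjusted p = 0.00482) with Pst hrcC-. The libraries left out lay on the linc1-1 side of the first principal component. The share of all genes called without them is not given here, so these calls are not read as particular to MOS6.

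The call was narrow. The MOS6 difference over both treatments was positive under 20 of 20 alternatives that could fit it, from 0.39 to 0.83 on the log2 scale, but passed under 7 of them, with adjusted p from 0.000916 to 0.106. Leaving out any 1 library other than the WT replicate 1 libraries put it above 0.05. The annotation has MOS6 and AT4G02140 overlapping by 518 bases on the same strand, and AT4G02140 was at no more than 0.819 FPKM in any library. The longest stretch MOS6 shares with another importin alpha gene is 41 bases (IMPA6).

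The summed level of the 8 dividing-cell markers was, as for MOS6, highest among WT in mock replicate 1 (115 FPKM) and higher in the 6 linc1-1 libraries than in the other 5 of WT. It differed in WT Pst hrcC- replicate 1, where the sum was 57.6 FPKM, next highest in WT, while MOS6 had its lowest level of the 12 libraries (2.54 FPKM). Of the 8 markers, 8 had a positive difference between the lines, beside 60.6% of all tested genes. Their median was 0.80 on the log2 scale beside 0.08 over all tested genes. None was called, beside 2.09% of all tested genes. The mitotic cyclin CYCB1;1 was at 0.79 (SE 0.22, adjusted p = 0.0882 in limma) and the mitotic kinase CDKB2;1 at 0.06 (SE 0.17). The part of these markers in the MOS6 difference was not tested.

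**Figure D2:**
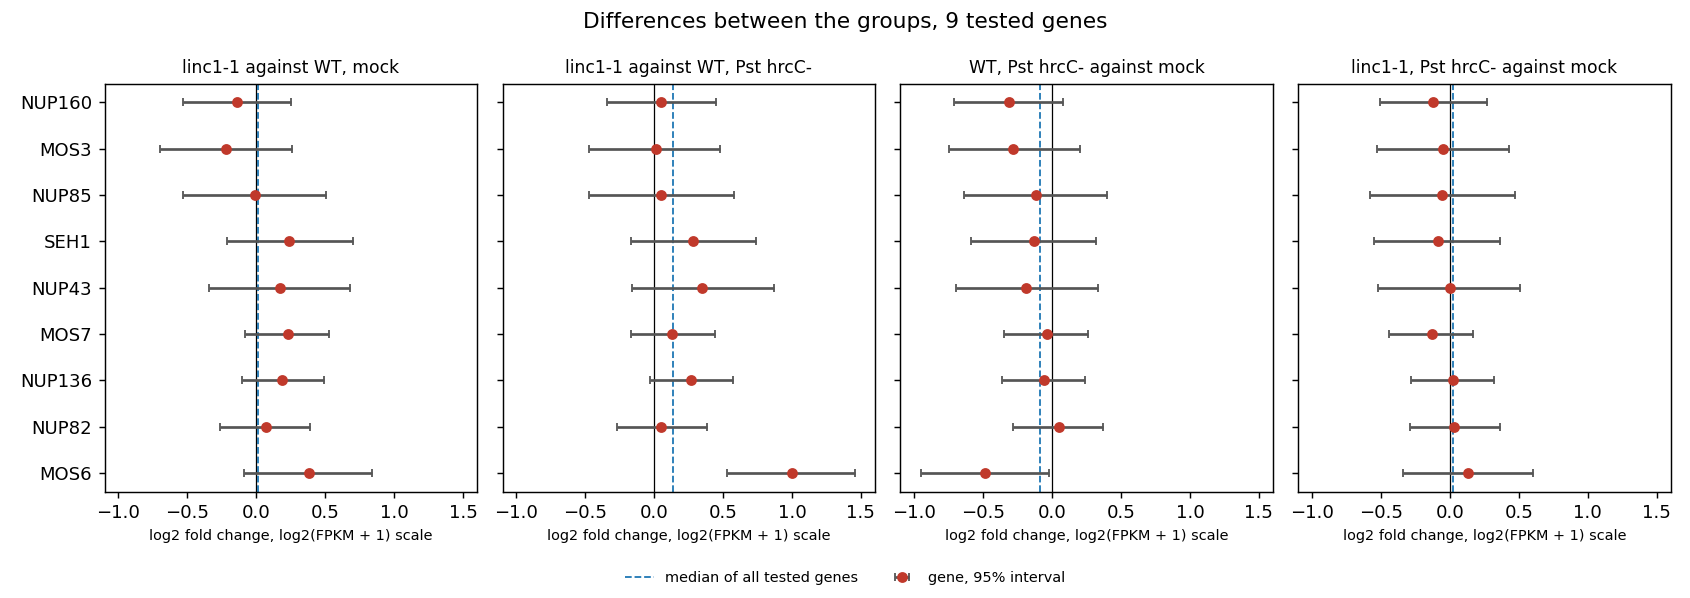
Log2 fold changes of the 9 tested genes (horizontal axes, log2(FPKM + 1) scale) in 4 comparisons, with 95% intervals; the dashed line is the median of all 16677 tested genes. The MOS6 interval with Pst hrcC-, from 0.53 to 1.46, lies clear of 0, and the other 8 intervals in that panel include 0. The intervals are not adjusted for the number of genes, and MOS6 did not pass there (adjusted p = 0.0728 in limma).

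As a group, the tested genes gave no call in 6 of the 7 comparisons by limma. In mock, 0 of 9 were called between the lines (0.036% of all tested genes). There 6 of 9 differences were positive, beside 50.9% of those of all tested genes. The median of the 9 was 0.17 on the log2 scale, beside 0.01 over all tested genes. With Pst hrcC-, 0 of 9 were called (0.432% of all) and 9 of 9 differences were positive, but so were 66% of those of all tested genes. The median of the 9 was 0.13 beside 0.14 over all genes, a shift that scaling by size factors reduced to 0.01. In that comparison 3 of 9 (MOS6, NUP136 and NUP43) were higher in linc1-1 without overlap, beside 14.9% of all tested genes.

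For the response to Pst hrcC-, 0 of 9 were called in WT (0.18% of all) and 0 of 9 in linc1-1 (0.606% of all). In WT 1 of 9 log2 fold changes was positive, that of NUP82 at 0.05, beside 34% of those of all tested genes. The median of the 9 was -0.13 beside -0.09 over all tested genes. In linc1-1 3 of 9 were positive, beside 55.3% of all, with a median of -0.05 beside 0.02. No gene of the whole table was called for the difference between the responses (0%). The response averaged over both lines also had 0 of 9 calls (1.07% of all), with a median of -0.10. At an unadjusted p under 0.05 and the same fold, the count was 1 of 9 with Pst hrcC- (MOS6, beside 10.5% of all tested genes) and 1 of 9 over both treatments (MOS6, beside 8.06%). It was 0 of 9 in mock (4.61%), in the response of WT (3.26%) and of linc1-1 (3.16%), in their difference (1.99%) and in their average (3.01%).

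**Figure D3:**
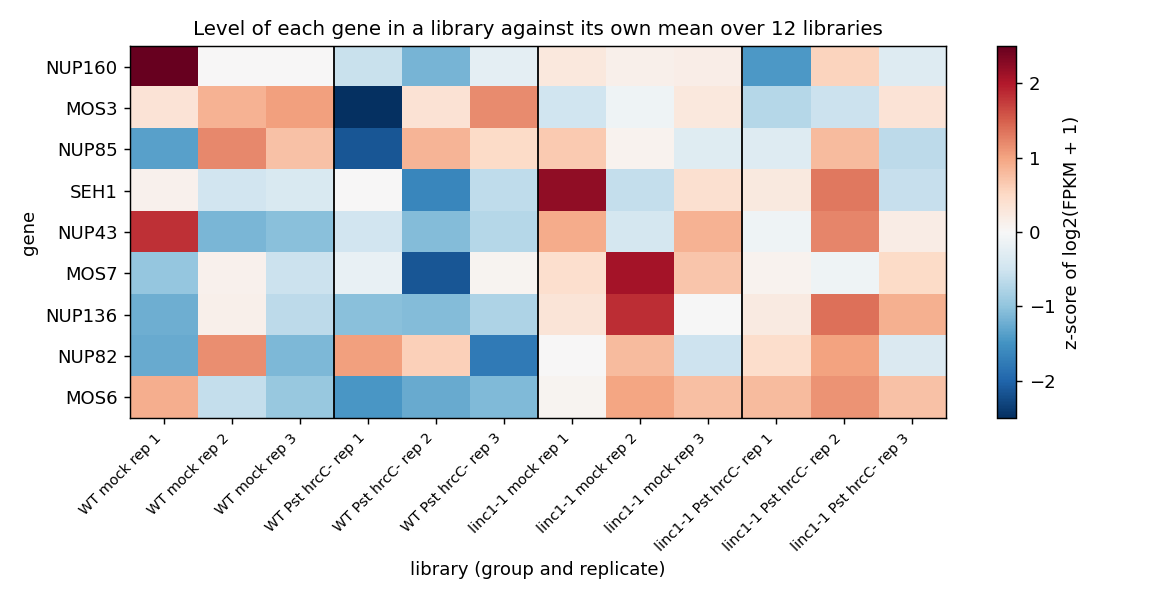
z-score of log2(FPKM + 1) of the 9 tested genes (vertical axis) in the 12 libraries (horizontal axis), each gene against its own mean. Red is above and blue below that mean. The 3 WT Pst hrcC- libraries have the lowest mean z-scores, from -0.82 to -0.39, and single libraries stand out for single genes, such as WT Pst hrcC- replicate 1 for MOS3 at -2.51.

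The mean z-score of the 9 genes was from -0.82 to -0.39 in the WT Pst hrcC- libraries and from -0.32 to 0.14 in WT mock. It was from 0.26 to 0.53 in linc1-1 mock and from -0.09 to 0.75 in linc1-1 with Pst hrcC-. The 5 genes outside the group that followed this mean most closely over the 12 libraries were TRFL9 (Pearson r = 0.922), AT1G09580 (0.92), AT2G37320 (0.915), HBT (0.914), which encodes a subunit of the anaphase-promoting complex, and AT5G26360 (0.914). The genes of a library share its scaling, and the WT replicate 1 libraries stood apart as described above. The values describe likeness in these libraries only.

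The wider machinery was read from 72 further genes of the pore, import and export receptors, the Ran cycle, mRNA export and the other MOS genes, of which 61 were tested. There was 1 call between the lines over both treatments, that of RAN1 (AT5G20010), which encodes a Ran GTPase. That is 1 of 61 beside the 2.09% of all tested genes called in this comparison. RAN1 was at 50.7, 60.2 and 57.3 FPKM in WT mock and at 55.9, 69.3 and 46.3 FPKM in WT with Pst hrcC-. It was at 89.4, 79.1 and 78.0 FPKM in linc1-1 mock and at 94.2, 98.2 and 79.6 FPKM in linc1-1 with Pst hrcC-. All 6 linc1-1 libraries were above all 6 WT libraries, which held for 1.82% of all tested genes. The difference was 0.61 on the log2 scale (SE 0.14, 95% interval 0.30 to 0.91, 1.52-fold, adjusted p = 0.0471 in limma) and was lost under size-factor scaling (0.52, adjusted p = 0.112). It passed under 7 of 21 alternatives and was positive under all 21.

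RAN2, the neighbor of RAN1 on chromosome 5, was at 28.2 to 49.8 FPKM in WT and at 45.9 to 66.7 FPKM in linc1-1, with a difference of 0.57 (SE 0.16, adjusted p = 0.0831 in limma). The 2 genes share a stretch of 65 identical bases, so reads between them may have been split either way. RAN3 was at 0.38 (SE 0.20, adjusted p = 0.298). Of the 10 Ran cycle genes 9 had a positive difference between the lines, beside 60.6% of all tested genes. Their median was 0.21 beside 0.08 over all tested genes.

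**Figure D4:**
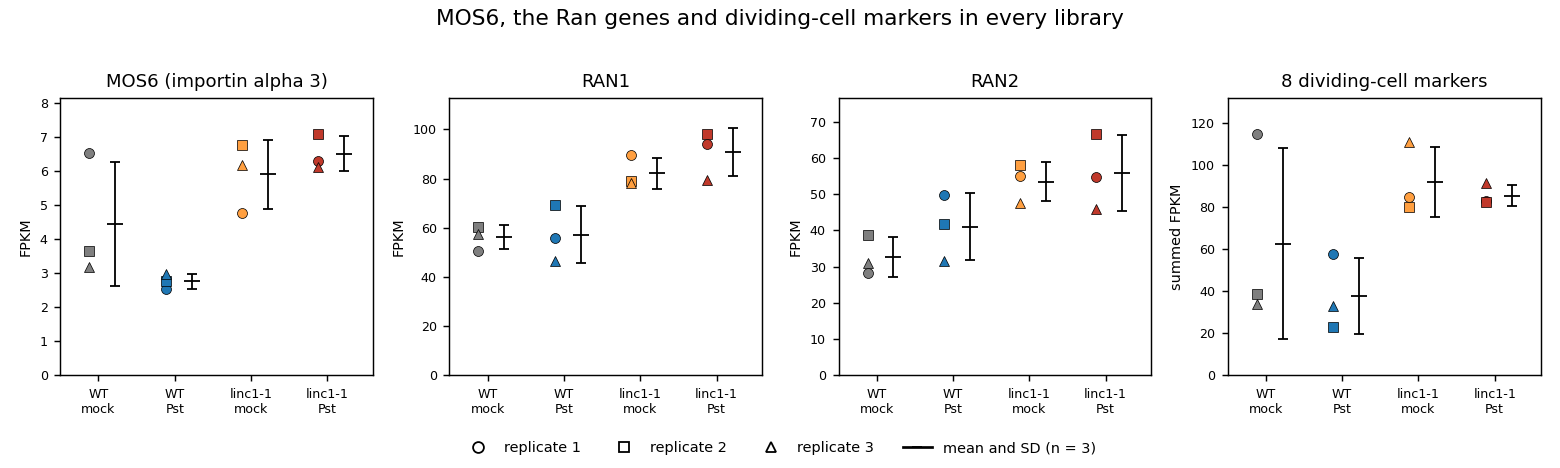
MOS6, RAN1, RAN2 (FPKM) and the summed FPKM of 8 dividing-cell markers in the 4 groups, with single libraries by replicate and the group mean and SD (n = 3). RAN1 separates the lines in all libraries, from at most 69.3 FPKM in WT to at least 78.0 FPKM in linc1-1, whereas MOS6 and the markers share a high WT mock replicate 1.

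Among the other 8 importin alpha genes, 5 were tested and 0 were called. IMPA2 and IMPA1, the most abundant, had means of 15.4 and 10.3 FPKM over the 12 libraries, and IMPA5, IMPA7 and IMPA8 had means of 0.00820, 0.0374 and 0.0294 FPKM. The largest difference between the lines in this family was that of IMPA6 at 0.24 (SE 0.12, adjusted p = 0.299 in limma), and the median of the 5 was 0.12.

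In each further list the gene with the largest difference between the lines did not pass the test. In the inner ring this was NUP35 (0.49, SE 0.15, adjusted p = 0.109 in limma), in the pore membrane NDC1 (0.36, SE 0.11, adjusted p = 0.0958), and in the outer ring outside the group SEC13B (0.32, SE 0.12, adjusted p = 0.183). The other MOS genes were led by MOS9 (0.42, SE 0.17, adjusted p = 0.211), the cytoplasmic side by CG1 (0.27, SE 0.14) and the basket by NUA (0.18, SE 0.09). On the lower side stood NUP62 of the central channel (-0.22, SE 0.16), the exportin PSD (-0.26, SE 0.14) and the mRNA export adaptor ALY3 (-0.29, SE 0.11, adjusted p = 0.154). Without the WT replicate 1 libraries NUP62 was at -0.43 (adjusted p = 0.00978 in limma), a fold still under 1.5. Those libraries lay on the linc1-1 side of the first principal component. The share of all genes passing without them is not given here, so the value is not read as particular to NUP62. Over all 61 genes 46 differences were positive and the median was 0.11, beside 60.6% positive and a median of 0.08 over all tested genes. In mock, with Pst hrcC- and in both responses 0 of the 61 were called.

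**Figure D5:**
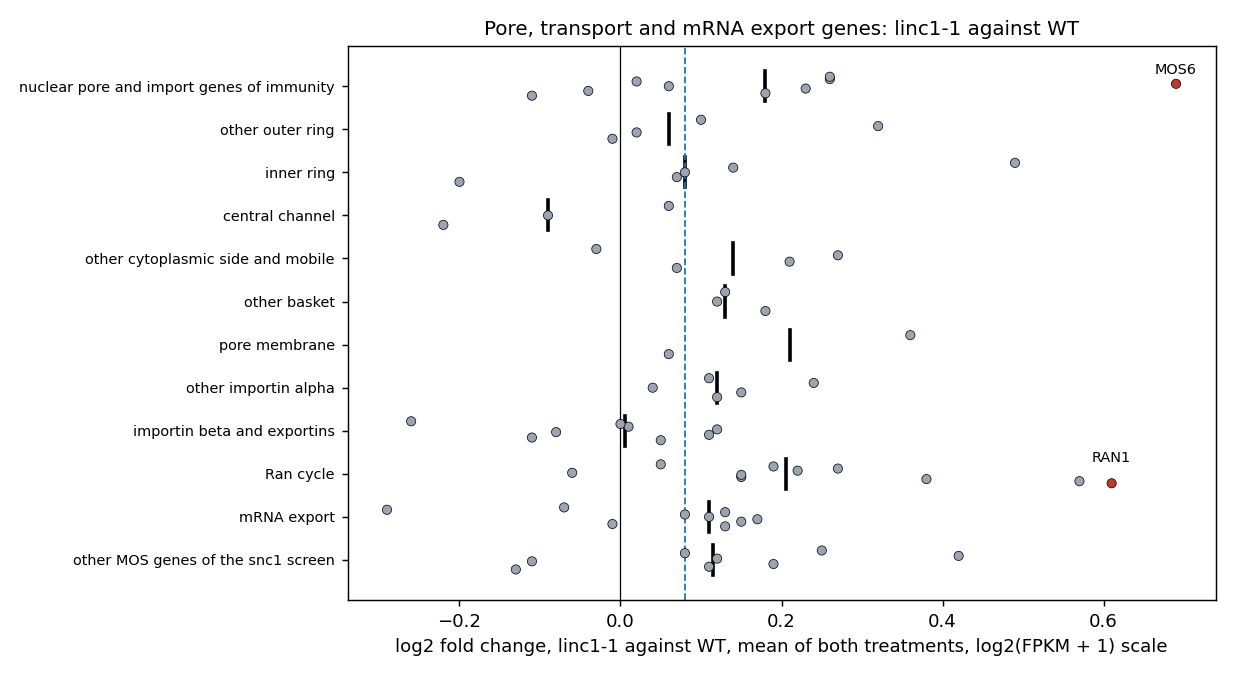
Log2 fold change of linc1-1 against WT over both treatments (horizontal axis, log2(FPKM + 1) scale) for the 9 tested genes and 61 further genes, 1 row per list (vertical axis). Points are genes, red where called, short black lines are list medians, and the dashed line is the median of all tested genes at 0.08. MOS6 at 0.69 and RAN1 at 0.61 are the called genes.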

How the data were processed

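The values are the FPKM that the authors deposited, in 2 tables, 1 per genotype. Per the labels and the methods, stranded paired-end mRNA libraries were trimmed, aligned to TAIR10 with TopHat2 (2.1.1 in the submitters' notes) and quantified with Cufflinks (2.2.1). Use of strand in quantification is not given in the sources used here. Columns were matched to groups by genotype, treatment and replicate. Of the 27371 identifiers, 26703 were found in TAIR10.1, which gave positions and sequence.

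The 16677 genes whose mean over the 12 libraries reached 1 FPKM were put on log2(FPKM + 1) and fitted with limma 3.58.1 (R 4.3.3), all 4 groups in one model with a variance trend, in 7 comparisons. P-values were adjusted by Benjamini-Hochberg over all tested genes. The tests were checked on simulated data. Alternatives covered the pseudocount, the filter, scaling, library weights, pairing and leaving out libraries. A fold change on this scale understates changes of low genes.

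Low values were looked at for whole reads, but 29.6% to 39.9% of them lay within 0.15 of a multiple of the smallest step against 30% by chance, so the depth is unknown and no count test was run. A value at 0 can be a failed estimate: LHCB1.3 was listed at 0 in 2 libraries and at 14900 FPKM or more in the others. The summed FPKM ranged from 905000 to 7040000 per library. Every library but that at 905000, WT Pst hrcC- replicate 3, held 1 or 2 genes above 1e6 FPKM. Size factors, which are medians over genes above 0 in all libraries, ranged from 0.883 to 1.16. All 10 genes, LINC1, called genes and the largest difference of each further list are named, with the 5 genes most like the group's mean. The rule for the 10 genes used no measured value, but the genes and lists were chosen with earlier results of these data known.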

Additional observations from a re-analysis of the deposited data

How the results depend on the processing

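Over both treatments, the count of called genes between the lines went from 1 (MOS6) to 0 with a pseudocount of 5 FPKM (MOS6 0.39, adjusted p = 0.0487 in limma, a fold under 1.5), with no filter on low values (adjusted p = 0.0642) and with a minimum mean of 5 FPKM, which removes MOS6 itself. Leaving out 1 library at a time gave counts from 0 to 1, with MOS6 at 0.60 to 0.82 and adjusted p of 0.00492 to 0.106. In mock the count went from 0 to 1 with library weights and without both WT replicate 1 libraries, and with Pst hrcC- from 0 to 1 under the same settings, with no adjustment of p, and over a range of 0 to 1 when single libraries were left out (1 without WT mock replicate 1). The called gene was MOS6 each time. With no adjustment of p it stood beside 10.5% of all tested genes, and the share under the other settings is not given here. RAN1 was positive under 21 of 21 alternatives (0.52 to 0.68, adjusted p from 0.00495 to 0.119) and passed under 7. Same-numbered replicates did not deviate together in general (4 of 18 correlations above 0.1, from -0.208 to 0.448). The highest, 0.448, was that of the replicate 1 libraries of WT mock and WT Pst hrcC-, which did deviate together. Across all groups the numbers were not read as pairs. A fit with the replicate number as a block gave 0 calls among the 9 genes (MOS6 0.69, adjusted p = 0.0604 in limma), while RAN1 passed (0.61, adjusted p = 0.0498). Of the counts under all alternatives, 145 kept within 1.5 times the reported count and 20 did not, and no called value changed sign. The reported count was 0 in every comparison but that over both treatments, so the 145 include counts that stayed at 0. The MOS6 call itself passed under 7 of 20 alternatives. The cause of these shifts was not tested. The unknown depth limits what can be said of NUP107 and NUP160, the lowest genes.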
